A study of Mus musculus with 30 samples.

Results

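Livers of non-irradiated mice collected at month 12 were compared with livers of non-irradiated mice collected at month 9. The 6 libraries of this comparison, 3 per time, were chosen by their labels alone, out of 30 libraries in the series. The series followed male mice of the strain labelled C57BL16 after a single exposure to 0.2 Gy of 56Fe ions at 600 MeV/n, or after no irradiation, and took left liver lobes at 5 times over a year. Both groups compared here had received no irradiation, and no transgene or drug is labelled in either. Month 9 stands for 270 days and month 12 for 360 days after the time of exposure, and the age of the mice at that time is not given in the sources used here. The irradiated livers of months 9 and 12, 3 libraries each, gave side-by-side values and the test of whether the change differed between the arms. All 30 libraries entered the fit, so the other groups also set its low-count filter and its estimate of the spread. RNA came from cryotome slices of frozen lobes, was depleted of ribosomal RNA and was sequenced as paired ends. The 3 libraries of a group are labelled biological replicates, and p-values measure the spread between them. Total counts on genes ran from 17765173 to 20215995 per library at month 9 and from 14987081 to 16424684 at month 12.

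Total RNA that is only depleted of ribosomal RNA keeps the RNA of the cell nucleus, such as unspliced precursors, introns and long noncoding RNAs that never leave it, beside the messenger RNAs of the cytoplasm. Malat1, a long noncoding RNA of nuclear speckles, and Neat1, the scaffold of paraspeckles, belong to the first kind. The liver also mounts the acute phase response, in which hepatocytes secrete serum amyloid A, haptoglobin and other proteins when cytokines signal inflammation. Many liver genes follow the daily clock and the feeding state, and the hour of collection is not given in the sources used here. The hepatocyte character of the tissue was plain in all 6 libraries. Albumin (Alb) stood at 65288, 56368 and 63196 CPM, counts scaled to a common library size, in the month 9 libraries and at 57986, 75663 and 69506 CPM in the month 12 libraries, and the 2 sets overlapped. All 20 hepatocyte identity markers were measured, and edgeR called 0 of them in either direction (2 at an unadjusted p under 0.05; 2 lower by DESeq2), with a median log2 fold change of -0.06.

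Replicate 2 of month 12 stood apart from the other 5 libraries in inflammation genes, so results are given with and without it where they rest on it. Saa1, which encodes a serum amyloid A, was at 27.4, 39.3 and 19.3 CPM in the month 9 libraries and at 27.2, 1938 and 19.6 CPM in the month 12 libraries. Lcn2, the iron-siderophore binder lipocalin 2, which was picked after its values were seen, was at 3.42, 4.65 and 2.02 CPM and then at 8.23, 1038 and 6.41 CPM. Mt1, a metallothionein that binds zinc, was at 9.09, 4.31 and 6.96 CPM and then at 4.92, 768 and 5.77 CPM. In all 3 genes the middle one of the month 12 values was the only high one among the 6 libraries. None of the 3 passed the test between the months (adjusted p = 0.15 for Saa1, 0.0554 for Lcn2 and 0.128 for Mt1). Dbp, a clock output transcription factor, was lowest in the same library, at 49.3, 52.2 and 33.6 CPM at month 9 and at 66.5, 5.96 and 70.4 CPM at month 12.

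Between month 9 and month 12 many noncoding genes, among them genes annotated within introns, were called higher, and many genes of the ribosome, the respiratory chain and the proteasome were called lower. Of 19685 genes tested, 3131 were called at a Benjamini-Hochberg adjusted p under 0.05 (15.9%). They split into 1994 called higher at month 12 (10.1%) and 1137 called lower (5.78%). The median log2 fold change over all genes tested was 0.04. Genes called higher had moved further, with a median log2 fold change of 1.40 against -0.57 for those called lower, and 1340 of the higher calls but only 75 of the lower calls exceeded 2-fold. Without any test, the 3 libraries of month 12 lay wholly above those of month 9 in 3446 genes (17.5%) and wholly below in 3180 (16.2%).

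With the 6 compared libraries fitted alone 1728 genes were called. The number of calls also depended on single libraries. Leaving out replicate 2 of month 12 left 1974 calls, replicate 3 of month 12 left 2057, replicate 1 of month 9 left 1872 and replicate 3 of month 9 left 1818, while leaving out replicate 1 of month 12 gave 3491. A call that stood in the full fit and in all 6 fits with 1 library left out is here said to have held. Calls that held numbered 703 higher (3.57% of genes tested) and 376 lower (1.91%).

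The share of all counts on Gm26917, a long noncoding RNA gene at chr17:39843013-39846341 on the plus strand, moved with the time as well. It was 0.522%, 0.452% and 0.526% in the month 9 libraries and 1.33%, 1.58% and 2.04% in the month 12 libraries. The 2 sets did not overlap, and the mean rose from 0.500% ± 0.0419 (SD, n = 3) to 1.65% ± 0.359 (SD, n = 3), a 3.30-fold difference. A two-sided exact permutation test of the difference gave p = 0.1, the smallest that 3 against 3 libraries allow (0.157 adjusted over 11 measures of composition). In the irradiated livers the share was 0.520% ± 0.0625 at month 9 and 0.870% ± 0.151 at month 12 (SD, n = 3). When the log2 share of Gm26917 entered the fit as a covariate, 1 gene was called and 1587 had an unadjusted p under 0.05. In that fit the median size of the called genes' log2 fold changes went from 0.87 to 0.49 and their median SE from 0.22 to 0.43, and the share itself did not overlap between the months, so the covariate and the time are partly the same quantity in these 6 libraries. Of the genes called higher 94.1% kept their sign under the covariate, and of those called lower 64.6% did. How far the Gm26917 share bears on the individual results was not tested beyond these values.

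**Figure D1:**
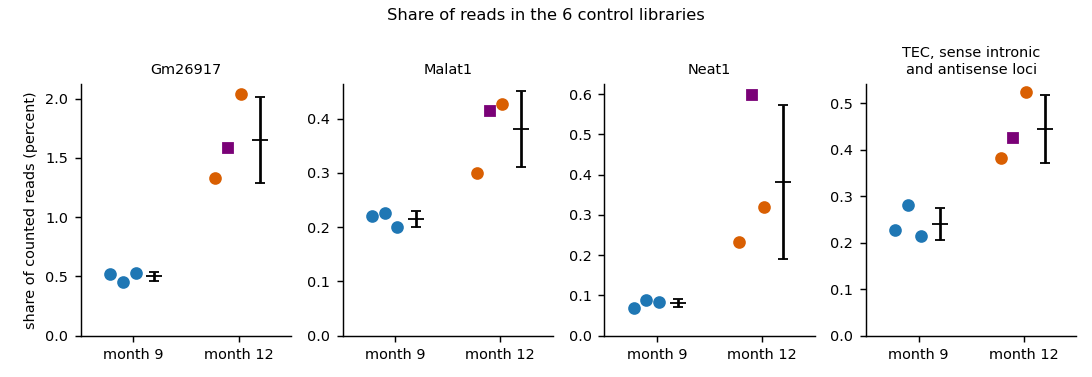
Shares of all counts (percent, y axis) on Gm26917, Malat1 and Neat1 and on genes annotated as TEC, sense intronic or antisense in control livers of month 9 and month 12. Each point is 1 library. In the controls the Gm26917 points lie between 0.452% and 0.526% at month 9 and between 1.33% and 2.04% at month 12.

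**Figure D2:**
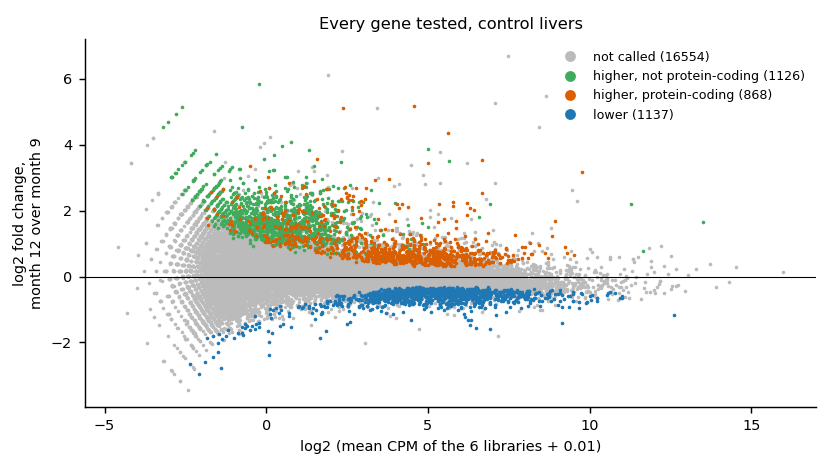
Log2 fold change of month 12 over month 9 in control livers (y axis) against mean log2 CPM (x axis) for the 19685 genes tested, with the 1994 genes called higher and the 1137 called lower marked. Higher calls reach further from 0 than lower calls.

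The share of genes called higher differed between annotation classes. Among 1184 genes of the TEC class, transcribed regions that await experimental evidence of a gene, 469 were called higher (39.6%) and 2 lower. Sense intronic genes, which lie within an intron of another gene on its strand, gave 68 higher of 156 (43.6%) and 0 lower. Antisense genes gave 206 higher of 981 (21%) and 6 lower. Of these, 257 TEC, 39 sense intronic and 66 antisense higher calls held. Protein-coding genes ran slightly the other way, with 868 of 14910 called higher (5.82%), 1103 lower (7.40%) and a median log2 fold change of -0.06. That lean depends on the scaling. With protein-coding genes scaled and fitted alone, an alternative added after the data were seen, 1120 were called higher and 605 lower, with a median of 0.03. Other noncoding classes were not all alike. Processed pseudogenes had 164 of 710 called higher (23.1%) and 3 lower. Small nuclear RNA genes had 21 of 95 called higher (22.1%), miscellaneous RNA genes 11 of 50 (22%) and microRNA genes 12 of 67 (17.9%). The rise was thus not limited to intronic and antisense genes. Long intergenic noncoding RNA genes had 72 of 714 called higher (10.1%, the share of all genes), bidirectional promoter RNAs 2 of 74 and transcribed unprocessed pseudogenes 5 of 63. All annotated classes other than protein-coding together had 1118 of 4733 called higher (23.6%), 34 lower and a median of 0.75. They include pseudogenes and immunoglobulin and T cell receptor genes.

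The joint share of TEC, sense intronic and antisense genes in all counts was 0.227%, 0.280% and 0.215% at month 9 and 0.383%, 0.426% and 0.524% at month 12, with no overlap. Reads of unspliced precursors can fall on such genes. The share of protein-coding genes was 96.9% ± 0.136 at month 9 and 94.9% ± 0.704 at month 12 (SD, n = 3). The sources used here do not say which strand column of the aligner's gene counts was kept, so an antisense gene and the gene it overlaps cannot be told apart by counts alone.

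Among the 14910 protein-coding genes, the 868 called higher spanned more of the genome. Their median span from first to last base was 48.6 kb, against 14 kb for the 1103 called lower and 25.7 kb for all protein-coding genes tested. In the longest of 10 equal classes of protein-coding genes by span 8.92% were called higher and 1.68% lower, and in the shortest class 3.76% were called higher and 13.7% lower. Summed exon length was ordered the same way, with 16% higher and 1.61% lower in the longest class and 3.08% higher and 16.6% lower in the shortest.

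**Figure D3:**
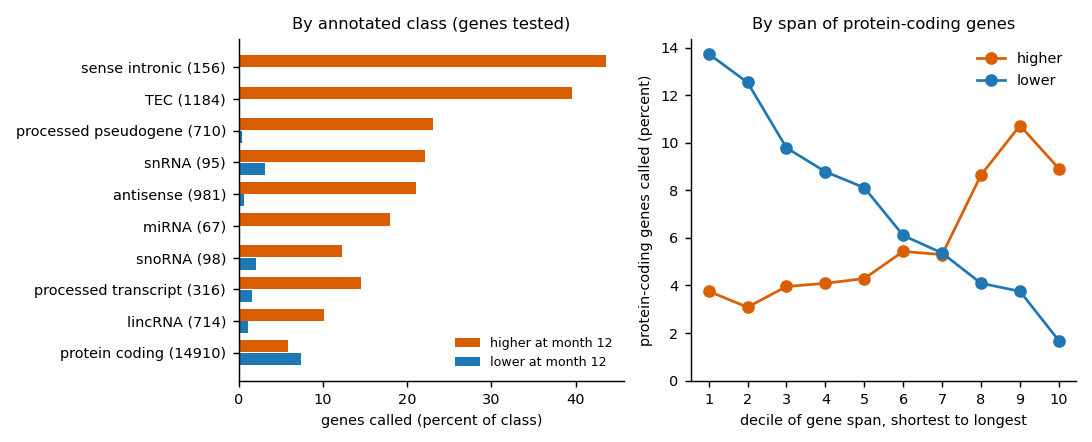
Percentage of genes called higher and lower at month 12 by annotation class (left, percentage on the x axis) and, for protein-coding genes, by 10 equal classes of genomic span (right, percentage on the y axis) in control livers. The TEC and sense intronic classes reach 39.6% and 43.6% called higher, and the shortest class has the largest share called lower, 13.7%.

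Of the 11 nuclear long noncoding RNAs listed, 4 were called higher (36.4%, against 10.1% of all genes) and 0 lower, and 2 calls held. Malat1 was at 2500.4, 2324 and 2306 CPM at month 9 and 3158, 4604 and 4394 CPM at month 12 (log2 fold change 0.77 ± 0.19, adjusted p = 0.00571); here and below ± after a log2 fold change is its standard error in the fit. All 3 month 12 libraries were above all 3 month 9 libraries. Neat1 was at 787, 913 and 963 CPM and then 2446, 6645 and 3278 CPM (log2 fold change 2.22 ± 0.58, adjusted p = 0.0132), and it was not called without replicate 2 of month 12 (adjusted p = 0.087) or without replicate 1 of month 9. Kcnq1ot1, the antisense RNA that silences the imprinted Kcnq1 domain, was at 41.3, 48.6 and 38.1 CPM and then 112, 165 and 171 CPM (log2 fold change 1.80 ± 0.21, adjusted p = 9.27e-06). It lies at chr7:143203458-143296549 on the minus strand and overlaps exons of Kcnq1 on the other strand. The median of the list was 0.40, and -0.12 without replicate 2 of month 12.

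Predicted genes, immune receptor segments and pseudogenes were left out of the rankings of single genes that follow. In what remained, the best supported single change was that of B3galt2, which encodes a galactosyltransferase and lies at chr1:143640664-143654614 on the plus strand. Its level was 2.69, 2.24 and 2.86 CPM at month 9 and 10.9, 14.8 and 12.6 CPM at month 12, a 4.91-fold rise (log2 fold change 2.29 ± 0.23, adjusted p = 1.09e-06). The month 12 libraries were all well above the month 9 libraries, and the call held. B3galt2 overlaps exons of Cdc73 on the opposite strand, and Cdc73, named here because of that overlap, was also called, with a log2 fold change of 0.53 ± 0.11 (adjusted p = 0.00163). With the strand setting unknown, counts alone cannot tell these genes apart where they overlap. Next in the order of adjusted p came R3hdm1, an RNA-binding domain protein, at 22.8, 20.6 and 25.4 CPM and then 46.8, 59 and 59.3 CPM (log2 fold change 1.26 ± 0.15, adjusted p = 9.27e-06). Pom121, a nuclear pore membrane protein, was at 7.18, 4.08 and 7.61 CPM and then 16.1, 19.3 and 14.9 CPM (log2 fold change 1.41 ± 0.17). Proser1 (log2 fold change 1.31 ± 0.16) and Irf2, an interferon regulatory factor (1.34 ± 0.17), completed the group. In each of these genes the month 12 libraries did not overlap with those of month 9, and all these calls held.

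The genes that rose most in proportion were mostly of low abundance. Adnp, a homeodomain chromatin protein, was at 0.337, 0.287 and 0.390 CPM at month 9 and 1.83, 2.10 and 2.05 CPM at month 12 (log2 fold change 2.53 ± 0.38, adjusted p = 5.70e-05). Pln, which encodes the calcium pump regulator phospholamban, was at 0.729, 0.345 and 0.911 CPM and then 3.31, 7.58 and 3.84 CPM (log2 fold change 2.89 ± 0.40, adjusted p = 2.76e-05), and its exons overlap those of Cep85l on the other strand. Tro, which encodes trophinin, was at 1.07, 1.03 and 0.781 CPM and then 3.38, 5.69 and 5.83 CPM (log2 fold change 2.35 ± 0.37). The libraries of the 2 times were far apart in these 3 genes, and the calls held. Zc3h12a, an RNase that degrades cytokine messenger RNAs, was at 1.80, 1.84 and 2.34 CPM and then 4.64, 22.9 and 4.93 CPM. Its log2 fold change of 2.44 ± 0.47 (adjusted p = 0.00124) became 1.24 without replicate 2 of month 12 (adjusted p = 0.0163), the library with the high value. Bcas3os1, an antisense RNA at chr11:85702200-85719744 on the minus strand, was at 0.786, 0.804 and 0.651 CPM and then 2.46, 3.86 and 5.38 CPM (log2 fold change 2.37 ± 0.33, adjusted p = 3.16e-05). It was 1 of 8 genes that were also called higher in the irradiated livers, where its log2 fold change was 1.61 (adjusted p = 0.0354).

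One microRNA gene was among the largest rises, and its mature sequence from RefSeq (GRCm38.p6) is shown because the count was taken on its annotated hairpin and not on the mature molecule. The capitals mark the seed, bases 2 to 8, by which a microRNA pairs with its targets, and the mature arm lies at chr1:84218926-84218948 on the minus strand.
mmu-miR-6353: uAGCAGCAcguauuuauccuauu
Mir6353 was at 0.393, 0 and 0.260 CPM at month 9 and 0.915, 3.72 and 1.67 CPM at month 12 (log2 fold change 3.22 ± 0.61, adjusted p = 0.000809). The hairpin, at chr1:84218849-84218961 on the minus strand, lies inside the span of Pid1 on the same strand, so its reads cannot be told apart from those of the longer transcript. The library construction used here recovers RNA fragments far longer than a mature microRNA.

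The genes that fell most in proportion had varied roles. Mup21, a major urinary protein gene of a family with near-identical members whose counts are uncertain for that reason, was at 259, 91.1 and 198 CPM at month 9 and 44.5, 62.3 and 76.3 CPM at month 12 (log2 fold change -1.58 ± 0.39, adjusted p = 0.00948), and was not called without replicate 1 of month 9 (adjusted p = 0.0577). Ccl24, a chemokine that attracts eosinophils, was at 2.08, 1.61 and 1.37 CPM and then 0.211, 0.271 and 0.769 CPM (log2 fold change -1.97 ± 0.44, adjusted p = 0.00277). Cldn5, a tight junction protein of endothelium, was at 9.31, 7.98 and 7.35 CPM and then 3.66, 1.76 and 3.72 CPM (log2 fold change -1.43 ± 0.29, adjusted p = 0.00144). The calls of Ccl24 and Cldn5 held. Trip13, an ATPase of the mitotic checkpoint, was at 1.74, 2.07 and 1.37 CPM and then 0.985, 0.271 and 0.320 CPM (log2 fold change -1.72 ± 0.40, adjusted p = 0.00453), with no overlap between the times.

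The best supported falls were smaller and more even across libraries. Commd3, a subunit of the commander complex of endosomal recycling, was at 59, 60.8 and 61.8 CPM at month 9 and 37.2, 36.2 and 31.1 CPM at month 12 (log2 fold change -0.80 ± 0.11, adjusted p = 2.47e-05). Mrps24, a protein of the small mitochondrial ribosomal subunit, was at 45.8, 44.2 and 49.4 CPM and then 24, 23.3 and 18.8 CPM (log2 fold change -1.07 ± 0.15, adjusted p = 2.91e-05). H1f0, a linker histone of cells that do not divide, was at 129.5, 106 and 125 CPM and then 77.7, 61.7 and 74.5 CPM (log2 fold change -0.76 ± 0.11, adjusted p = 7.43e-05). Wbp1 (-0.81 ± 0.12), Rabac1, a receptor for Rab GTPases (-0.89 ± 0.14), and Mrpl12, of the large mitochondrial ribosomal subunit (-0.97 ± 0.16), fell by similar log2 amounts. All these calls held.

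**Figure D4:**
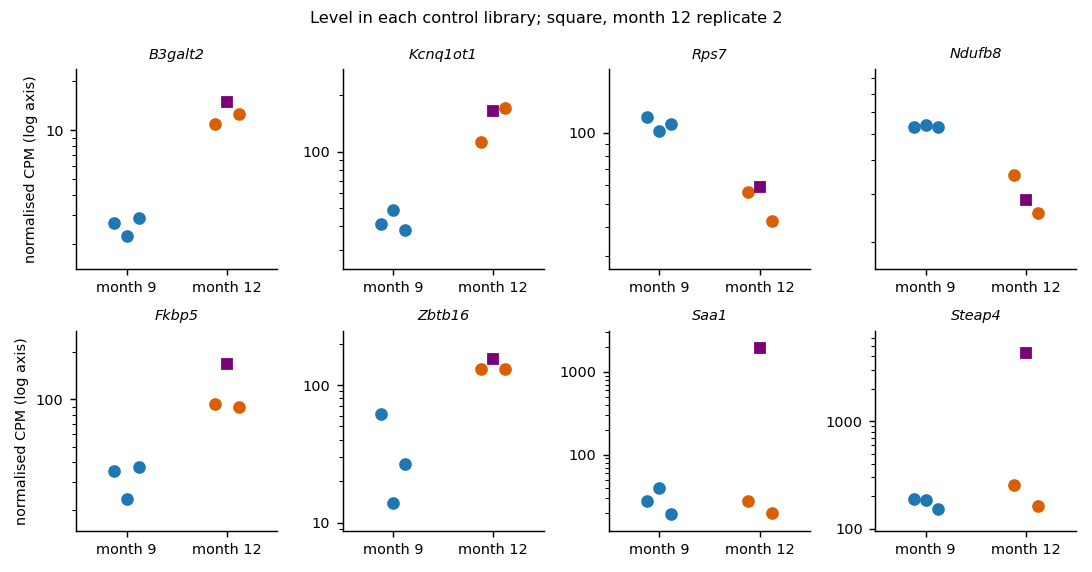
Normalized level (CPM, log axis) of 8 genes in the 3 month 9 and 3 month 12 control libraries; each point is 1 library and the square is replicate 2 of month 12. B3galt2, Kcnq1ot1, Rps7 and Ndufb8 separate by month in all libraries, and Saa1 and Steap4 are high in the square alone.

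Many genes of the cytosolic ribosome were called lower. Of 46 ribosomal protein genes measured, 20 were called lower (43.5%, against 5.78% of all genes) and 0 higher, 9 of the lower calls held, and the median log2 fold change was -0.55 beside 0.04 over all genes tested. In 32 of the 46 all month 12 libraries were below all month 9 libraries (16.2% of all genes), and 26 of the 46 were not called. Rps7, of the small subunit, was at 116, 102 and 109 CPM at month 9 and 56.4, 59.1 and 42.5 CPM at month 12 (log2 fold change -1.05 ± 0.17, adjusted p = 0.000199). Rps3 was at 264, 215 and 250.01 CPM and then 134, 153 and 95.6 CPM (-0.93 ± 0.20, adjusted p = 0.00253), and Rps6, the S6 kinase substrate, fell by a log2 amount of -0.84 ± 0.19 on the same scale. Rpl5 of the large subunit, which can bind MDM2, was at 76.4, 68.9 and 76.6 CPM and then 44.9, 55.9 and 32.5 CPM (-0.73 ± 0.17, adjusted p = 0.00382). Each of these 4 separated by month and held its call. Rpl4 did not pass and overlapped, at 420.3, 344 and 413 CPM and then 373, 382 and 327 CPM (log2 fold change -0.12 ± 0.17). Many ribosomal protein genes have processed pseudogenes that can take up their reads, so the size of each change is uncertain. Of all processed pseudogenes 164 of 710 were called higher, and whether they took up reads of ribosomal protein genes was not tested. Without replicate 2 of month 12 the count was 24 lower (52.2%, against 3.25% of all genes in that fit) and the median -0.69. With the Gm26917 share as a covariate the median was 0.02, and in the irradiated livers it was -0.39.

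Of 23 mitochondrial ribosomal protein genes, 10 were called lower (43.5%, against 5.78% of all genes) and 0 higher, with 4 held and a median of -0.41 (0.09 with the covariate). Besides Mrps24 and Mrpl12, the held calls included Mrpl13, at 41.1, 40.2 and 39.2 CPM at month 9 and 30.6, 25.2 and 24.5 CPM at month 12 (log2 fold change -0.59 ± 0.14, adjusted p = 0.00405), and Mrps5 (-0.56 ± 0.11, adjusted p = 0.00148). In 18 of the 23 genes the month 12 libraries were all below those of month 9 (16.2% of all genes).

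Among nuclear genes of the respiratory chain, complex I, which oxidises NADH, had 15 of 30 genes called lower (against 5.78% of all genes), 0 higher and 9 held, with a median log2 fold change of -0.47. The month 12 libraries lay wholly below those of month 9 in 29 of the 30 (16.2% of all genes). Ndufb8 was at 53.1, 54 and 52.9 CPM at month 9 and 35.2, 28.6 and 25.4 CPM at month 12 (log2 fold change -0.84 ± 0.16, adjusted p = 0.000957), and Ndufb5 at 64.8, 61.8 and 70.7 CPM and then 52, 40.3 and 35.9 CPM (-0.62 ± 0.14, adjusted p = 0.00305). The exception in sign was Ndufb2, at a log2 fold change of 0.13 ± 0.18, which was not called. Complexes II to V had 14 of 35 called lower (40%, against 5.78% of all genes), 1 higher, 5 lower calls held and a median of -0.52. Sdhd, a membrane anchor of succinate dehydrogenase, was at 217, 218 and 232 CPM and then 155, 117 and 127 CPM (-0.74 ± 0.18, adjusted p = 0.00485). Uqcrh of complex III was at 122, 106 and 124 CPM and then 80.8, 76.4 and 64.8 CPM (-0.67 ± 0.17, adjusted p = 0.00771), and Cox7a2 of cytochrome c oxidase changed by -0.77 ± 0.19 (adjusted p = 0.00707). The 1 gene called higher was Atp5l, an ATP synthase subunit, at 4.88, 4.19 and 3.97 CPM and then 6.82, 8.93 and 8.39 CPM (0.89 ± 0.24); it was not called without replicate 3 of either time (highest adjusted p = 0.0581). With the covariate the medians were 0.12 for complex I and 0.28 for complexes II to V, so both changed sign, and in the irradiated livers they were -0.39 and -0.47.

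The proteasome, which degrades ubiquitin-tagged proteins, had the largest share of its genes called lower among these lists in the full fit. Without replicate 2 of month 12 the cytosolic ribosomal list had the largest, 52.2% against 36.7% for the proteasome and 3.25% of all genes. Of 30 proteasome subunit genes, 16 were called lower (53.3%, against 5.78% of all genes) and 0 higher. Of these calls 8 held, and the median log2 fold change of the list was -0.46. Psma4 of the core particle was at 116, 114 and 125 CPM at month 9 and 82.7, 72.3 and 74.2 CPM at month 12 (log2 fold change -0.63 ± 0.12, adjusted p = 0.000819). Psmd2 of the regulatory particle was at 282, 264 and 307 CPM and then 204, 196 and 163 CPM (-0.60 ± 0.15, adjusted p = 0.00848). In 27 of the 30 genes the libraries separated downward (16.2% of all genes). Psmd11 was the member with a positive value, at a log2 fold change of 0.21 ± 0.14, and was not called. The median was 0.21 with the covariate and -0.32 in the irradiated livers. With protein-coding genes scaled alone, the lower calls were 13 of the 46 ribosomal protein genes, 6 of the 23 mitochondrial ribosomal protein genes, 12 of the 30 complex I genes, 7 of the 35 genes of complexes II to V and 11 of the 30 proteasome genes, and the medians stayed negative, from -0.46 to -0.32. In that fit 605 of all 15163 genes tested were called lower.

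Promoters from these lists are shown because many of their genes were called in 1 direction. The search was for CCGGAAG, a core of ETS-type binding sites, and its reverse complement CTTCCGG on either strand, in the 300 bases from 250 before to 50 after the RefSeq start of each gene (GRCm38.p6). Of 11658 protein-coding genes tested that had a promoter sequence, 16.3% held the motif. It was in 23.6% of 894 genes called lower and in 15.6% of 693 called higher. Among the groups it was in 14 of 35 ribosomal protein genes (40%), 10 of 26 complex II to V genes (38.5%), 8 of 24 proteasome genes (33.3%), 4 of 26 complex I genes and 3 of 18 mitochondrial ribosomal protein genes. The 20 acute phase genes with a sequence had it in 0. The same stretch was also searched for 4 other motifs, of 5, 6, 8 and 6 bases. In this order they were in 38.3%, 10.4%, 4.70% and 8.50% of genes called lower. Over all protein-coding genes with a promoter sequence the shares were 38.4%, 9.49%, 2.91% and 8.08%. The ETS-type motif detailed here is 1 of the 5 searched, and no test compared them. A match is a description of letters, not of a bound site. The 120 bases before the start are printed 5′ to 3′ on the gene's strand for 5 called genes of these lists, picked because they hold the motif there, with the motif in capitals.
Rps7, chr12:28635954-28636073, minus strand: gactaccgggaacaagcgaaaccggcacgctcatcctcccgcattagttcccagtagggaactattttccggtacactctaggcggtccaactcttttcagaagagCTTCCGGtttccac
Rps6, chr4:86857368-86857487, minus strand: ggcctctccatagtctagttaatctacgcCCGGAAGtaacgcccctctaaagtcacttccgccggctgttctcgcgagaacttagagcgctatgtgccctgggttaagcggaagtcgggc
Sdhd, chr9:50603850-50603969, minus strand: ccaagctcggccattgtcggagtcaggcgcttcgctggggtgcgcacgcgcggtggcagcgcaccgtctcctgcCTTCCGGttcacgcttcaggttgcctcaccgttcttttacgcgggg
Uqcrh, chr4:116075071-116075190, minus strand: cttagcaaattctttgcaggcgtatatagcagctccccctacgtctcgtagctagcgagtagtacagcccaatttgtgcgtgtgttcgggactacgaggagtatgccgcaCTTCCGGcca
Psmd2, chr16:20651532-20651651, plus strand: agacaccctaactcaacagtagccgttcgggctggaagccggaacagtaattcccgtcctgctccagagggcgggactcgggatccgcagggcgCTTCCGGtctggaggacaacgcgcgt
Other called genes of the same lists, among them Rps3, Rpl5, Psma4, Ndufb8, Ndufb5, Mrps24, Mrpl12 and Cox7a2, had no match in the same stretch.

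Of 29 genes for splicing factors and RNA-binding proteins, 6 were called higher (20.7%, against 10.1% of all genes), 1 was called lower, 4 of the higher calls held, and the median log2 fold change was 0.26 (0.17 without replicate 2 of month 12, -0.12 with the covariate and -0.21 in irradiated livers). The other 22 were not called. Srrm2, a scaffold of nuclear speckles, was at 203, 139.7 and 193 CPM at month 9 and 284, 376 and 336 CPM at month 12 (log2 fold change 0.89 ± 0.18, adjusted p = 0.00116). Rbm25 was at 63.2, 73.2 and 71.6 CPM and then 94.1, 105 and 108 CPM (0.56 ± 0.12, adjusted p = 0.00273). Both held and separated by month. The gene called lower was Cirbp, the cold-inducible RNA-binding protein, at 16.7, 16.7 and 18.7 CPM and then 13.2, 9.00 and 11.1 CPM (-0.64 ± 0.20, adjusted p = 0.0263). Its call was lost with replicate 3 of month 9 or replicate 2 or 3 of month 12 left out (highest adjusted p = 0.11).

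Of the 7 protein genes of the mitochondrial genome tested, 1 was called higher (14.3%, against 10.1% of all genes) and 0 lower. The 1 call, mt-Nd4 (0.90 ± 0.30, adjusted p = 0.0415), was lost with any of the 6 libraries left out. The median was 0.75 and 6 of the 7 separated upward (17.5% of all genes). mt-Nd1 of complex I was at 786, 722 and 838 CPM at month 9 and 1040.4, 1023 and 1376 CPM at month 12 (0.55 ± 0.25, adjusted p = 0.124), and mt-Nd2 at 545, 412 and 576 CPM and then 769.8, 766 and 1068 CPM (0.76 ± 0.32, adjusted p = 0.103). All mitochondrial genes together held 2.16% ± 0.206 of counts at month 9 and 2.85% ± 0.664 at month 12 (SD, n = 3; exact permutation p = 0.2, two-sided). With the covariate the median of the 7 was -0.33. The 2 mitochondrial ribosomal RNAs, mt-Rnr1 and mt-Rnr2, were not called (log2 fold changes 0.20 ± 0.89 and 0.05 ± 0.74). These libraries had been depleted of ribosomal RNA.

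A pair of genes known to respond to glucocorticoids were among the clearer rises in hepatocyte regulation. Fkbp5, a co-chaperone of the glucocorticoid receptor, was at 35.4, 23.6 and 37.1 CPM at month 9 and 93.5, 169 and 89.2 CPM at month 12 (log2 fold change 1.87 ± 0.39, adjusted p = 0.003). Zbtb16, a zinc finger repressor, was at 61.1, 14 and 26.8 CPM and then 130.3, 154 and 131 CPM (2.02 ± 0.42, adjusted p = 0.00262). Both separated by month and held. Of the 16 genes listed as induced by glucocorticoids, 4 were called higher (25%, against 10.1% of all genes) and 0 lower. The other 2 called were Per1 and Cdkn1a. The median was 0.75, and without replicate 2 of month 12 it was -0.04 with 2 calls higher (12.5%, against 6.71% of all genes in that fit). Tsc22d3, another gene of the list, was at 234, 84.8 and 128 CPM and then 121, 107 and 148 CPM and did not pass (adjusted p = 0.592). The receptor gene Nr3c1 had a log2 fold change of -0.23 ± 0.13 and overlapped between the times.

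The clock genes gave 1 call. Per1, a clock repressor, was at 25.3, 11.3 and 15.4 CPM at month 9 and 32.9, 37.8 and 37 CPM at month 12 (log2 fold change 1.05 ± 0.31, adjusted p = 0.0224). The call was lost without replicate 2 or 3 of either month (highest adjusted p = 0.113). The 9 clock repressors had 1 call higher (11.1%, near the 10.1% of all genes) and a median of 0.76. Without replicate 2 of month 12 they had 3 calls higher (33.3%, against 6.71% of all genes in that fit) and a median of 0.99. The 7 activators and antiphase genes had a median of -0.24, and Arntl, an activator, was at 11.1, 10.3 and 16.9 CPM and then 8.44, 14.7 and 7.94 CPM, with overlap.

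Fasting and gluconeogenesis genes gave 3 higher calls of 20 (15%, against 10.1% of all genes) and 0 lower, and none of the 3 held. The median was 0.38, and -0.02 without replicate 2 of month 12. Lpin1, a phosphatidate phosphatase and coactivator that rises in fasting, was at 340.2, 142 and 210.2 CPM and then 1103, 389 and 745 CPM (1.69 ± 0.43, adjusted p = 0.0109); without replicate 2 or 3 of month 9 or replicate 1 of month 12 it was not called (highest adjusted p = 0.0629). Foxo1, the insulin-restrained transcription factor, had a log2 fold change of 0.69 ± 0.21 (adjusted p = 0.0231), lost without replicate 1 or 2 of month 9 or replicate 1 or 3 of month 12 (highest adjusted p = 0.16). The enzymes themselves overlapped between the times, with Pck1 at 3389.7, 1866 and 3056 CPM and then 2498, 2353 and 3312 CPM, and G6pc at 424, 332 and 464 CPM and then 269.6, 32.8 and 342 CPM.

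The acute phase list rested on 1 library. All 26 members had a positive log2 fold change with a median of 1.02, and without replicate 2 of month 12 the median was -0.15. Of the 26, 2 were called higher, Steap4 and Il1rn, and 0 were called without that library. Steap4, a metalloreductase, was at 188, 184 and 153 CPM at month 9 and 257, 4289 and 162 CPM at month 12 (log2 fold change 3.16 ± 0.98, adjusted p = 0.0326), and without that library 0.24 (adjusted p = 0.878). Il1rn, the interleukin 1 receptor antagonist, was at 2.64, 3.04 and 1.30 CPM and then 3.17, 48.7 and 2.24 CPM (2.94 ± 0.81), and without that library 0.18 (adjusted p = 0.856). The other 5 libraries lay far below replicate 2 in both genes. The summed level of the list ran from 20191 to 24390 CPM at month 9 and was 21369.8, 75166 and 19917 CPM in replicates 1, 2 and 3 of month 12. Such high sums were not particular to the controls. In irradiated livers the sum ran from 18470 to 30285 CPM at month 9 and from 18773 to 82839 CPM at month 12. At month 1 it reached 89541 CPM in irradiated livers.

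Several markers of immune cells were high in the same library. The neutrophil list had 3 of 11 called higher (27.3%, against 10.1% of all genes), Cxcr2, Csf3r and Mmp8. Its median was 2.61, and without replicate 2 of month 12 it had 0 calls and a median of -0.03. Its summed level was 4.73 to 5.44 CPM at month 9 and 6.07, 80.4 and 5.79 CPM in replicates 1, 2 and 3 of month 12. S100a8, a defining granulocyte gene, was at 0.505, 0.345 and 0.586 CPM and then 0.633, 13.7 and 0.320 CPM. The Kupffer cell and macrophage list had 1 of 20 called higher (5%, against 10.1% of all genes). The call was the scavenger receptor gene Marco, at 5.16, 5.51 and 2.80 CPM and then 3.66, 265 and 11.6 CPM (4.37 ± 1.28, adjusted p = 0.0252, and 0.711 without that library). The list's median was 0.52 with and -0.70 without it, so its direction turned. Adgre1, which encodes the macrophage marker F4/80, was at 35, 31.8 and 20.7 CPM and then 16.1, 153 and 13.8 CPM, lower than month 9 in replicates 1 and 3 and higher in replicate 2. With replicate 2 left out its log2 fold change was -0.99 (adjusted p = 0.162).

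Of 16 B and plasma cell markers 2 were called higher (12.5%, against 10.1% of all genes), Jchain, the joining chain of secreted antibodies, at 2.92, 1.21 and 1.63 CPM and then 2.46, 22.9 and 3.84 CPM (2.33 ± 0.61, adjusted p = 0.0126) and Igkc at 3.31, 2.53 and 2.02 CPM and then 3.73, 39.5 and 5.45 CPM (2.62 ± 0.80, adjusted p = 0.03). Both calls were lost without replicate 2 of month 12 (adjusted p = 0.361 and 0.532) and without replicates 2 and 3 of month 9, and Igkc also without replicate 1 of month 9. The list's median was 0.48 with that library and 0.52 without it, and its summed level was 29.6 to 45.6 CPM at month 9 and 58, 236 and 83.7 CPM in replicates 1, 2 and 3 of month 12, so replicates 1 and 3 were also above month 9. Of 16 T and NK cell markers 1 was called, lower (6.25%, near the 5.78% of all genes). It was Zap70, a kinase of T cell receptor signalling, which fell from 13.7, 11.3 and 12.4 CPM to 5.91, 8.53 and 6.79 CPM (-0.82 ± 0.21, adjusted p = 0.00831) and held. The share of immune cells in the lobes was not measured.

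Of 20 markers of the sinusoidal endothelium, the fenestrated lining of liver capillaries, 6 were called lower (30%, against 5.78% of all genes) and 0 higher, 3 calls held, and the median log2 fold change was -0.30 (-0.36 without replicate 2 of month 12). Clec4g, a lectin of these cells, was at 43.5, 35.6 and 37.4 CPM at month 9 and 24.7, 20.8 and 20.4 CPM at month 12 (log2 fold change -0.82 ± 0.15, adjusted p = 0.000451). Kdr, which encodes the VEGF receptor 2, was at 131, 119.7 and 124 CPM and then 91.6, 51.9 and 75.7 CPM (-0.78 ± 0.17, adjusted p = 0.00314). Both separated by month and held. With protein-coding genes scaled alone, 3 of the 20 were called lower, beside 605 of all 15163 genes tested in that fit. Stab2, a hyaluronan scavenger receptor, also separated, at 183, 162 and 156 CPM and then 125, 132 and 134 CPM, and did not pass (adjusted p = 0.0656). Lyve1 overlapped between the times, at 10.1, 13.4 and 7.74 CPM and then 16, 16 and 8.33 CPM. In bulk liver, fewer cells of a type and less RNA per cell cannot be told apart. The list's median was 0.21 with the Gm26917 covariate and -0.04 in the irradiated livers. Bmp2, which these cells send to hepatocytes to set hepcidin, fell from 38.4, 25.4 and 33 CPM to 22.3, 20.6 and 16.5 CPM (-0.70 ± 0.15, adjusted p = 0.00163) and held, while the hepcidin gene Hamp overlapped, at 48.5, 53.5 and 166 CPM and then 111, 246 and 94.4 CPM.

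Other cell types of the liver changed in few markers. Of 26 stellate cell and matrix genes, 1 was called higher (3.85%) and 2 lower (7.69%), against 10.1% and 5.78% of all genes. The higher one, the proteoglycan gene Bgn, was at 41.1, 36.9 and 46.4 CPM and then 60.7, 63.6 and 56.3 CPM (0.54 ± 0.12, adjusted p = 0.00226) and held, and Col1a1 was at 6.06, 15.8 and 3.84 CPM and then 22.4, 18.7 and 8.33 CPM (adjusted p = 0.0905). Of 12 cholangiocyte markers 1 was called higher (8.33%, against 10.1% of all genes), and the cytokeratin gene Krt19 was not. The call was Sox9, at 3.98, 2.81 and 3.71 CPM and then 6.19, 17 and 6.66 CPM (2.84-fold, adjusted p = 0.0226, and 0.231 without replicate 2 of month 12). Without replicate 1, 2 or 3 of month 9 Sox9 was not called either (highest adjusted p of these 3 fits 0.0958). Few zonation genes were called. Of 15 pericentral genes 1 was called higher (6.67%, against 10.1% of all genes). Of 17 periportal and urea cycle genes 2 were called lower (11.8%, against 5.78% of all genes), and none of these calls held. Glul, the pericentral glutamine synthetase, was at 1259, 1447 and 1341 CPM and then 1122, 1596 and 1076 CPM, and Cps1, the periportal urea cycle enzyme, at 9397, 4520.1 and 8479 CPM and then 6479.8, 5592 and 6619.8 CPM, both with overlap.

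Conjugation enzymes, which attach glucuronate, sulfate or glutathione to drugs and bilirubin, had 6 of 30 called lower (20%, against 5.78% of all genes) and 0 higher, with 2 held and a median of -0.39 (0.13 with the covariate). Ugt1a1, the bilirubin glucuronosyltransferase, was at 65.3, 63.4 and 75.9 CPM at month 9 and 42.3, 32.2 and 40.8 CPM at month 12 (log2 fold change -0.83 ± 0.18, adjusted p = 0.00261). Ugt2b5 was at 1039.8, 958 and 1249.6 CPM and then 638, 416 and 622 CPM (-0.95 ± 0.23, adjusted p = 0.00564). Both separated and held; genes of these families share sequence, and the Ugt1a genes share exons, so reads may be split between members.

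Sex-biased hepatocyte genes had 3 of 21 called lower (14.3%, against 5.78% of all genes) and 0 higher, with a median of -0.55. Of these 3 calls 1 held. Without replicate 2 of month 12 the list had 1 lower call (4.76%, against 3.25% of all genes in that fit) and a median of -0.83. Mup3, a pheromone carrier of male urine, was at 10116, 5959.5 and 9884 CPM and then 3075, 3706 and 4794 CPM (-1.17 ± 0.22, adjusted p = 0.000819), with no overlap, and held. Slco1a1, a male-biased organic anion transporter, was at 1086, 299 and 1091 CPM and then 113, 342 and 486 CPM and overlapped, although it was called (-1.40 ± 0.46, adjusted p = 0.0421). Of the 6 fits that leave out 1 library, 4 did not call it (highest adjusted p = 0.163).

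Of 25 cholesterol genes 3 were called lower (12%) and 2 higher (8%), near the 5.78% and 10.1% of all genes. Insig1, which retains the SREBP escort in the endoplasmic reticulum, was at 768, 879.6 and 952 CPM at month 9 and 595, 299 and 463 CPM at month 12 (-0.94 ± 0.22, adjusted p = 0.00416). Tm7sf2, a sterol reductase, was at 202, 144 and 189.6 CPM and then 108, 107 and 111 CPM (-0.71 ± 0.17, adjusted p = 0.00586). Both held. Of 14 bile acid synthesis genes 2 were called lower (14.3%, against 5.78% of all genes). Amacr, a racemase of side chain oxidation, was at 164, 153 and 184 CPM and then 105, 109 and 99.9 CPM (-0.68 ± 0.16, adjusted p = 0.00539) and held. Cyp7a1, which sets the pace of bile acid production, stood at 73.7, 165 and 75.1 CPM and then 96.2, 16.4 and 212 CPM, too spread for a call.

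Lipid genes were mostly not called. The 35 PPAR-alpha and fatty acid oxidation genes gave 2 calls, both lower (5.71%, near the 5.78% of all genes), of which 0 held. Of 20 lipid droplet genes 2 were called higher (10%, near the 10.1% of all genes). Cideb, a droplet and lipoprotein assembly protein, was at 16, 15.6 and 19.1 CPM and then 32.4, 26.3 and 32.8 CPM (0.85 ± 0.18, adjusted p = 0.00241) and held. Pnpla2, the triglyceride lipase, was at 34.7, 26.4 and 33.9 CPM and then 48.3, 44.8 and 45.4 CPM (0.54 ± 0.14, adjusted p = 0.0101) and was not called without replicate 2 of month 9 (adjusted p = 0.0978). Amino acid catabolism had 5 of 25 called lower (20%) and NRF2 antioxidant genes 4 of 26 (15.4%), against 5.78% of all genes, with 0 held in either list. Gclc, which limits glutathione synthesis, was at 479.9, 541 and 653 CPM and then 365, 278 and 347 CPM (-0.76 ± 0.20, adjusted p = 0.00937), and was not called without replicate 3 of month 9 (adjusted p = 0.0591). Of 33 complement and coagulation genes 2 were called lower (6.06%, near the 5.78% of all genes). Among them was F13b, a subunit of clotting factor XIII, at 317, 291 and 328 CPM and then 215, 184 and 184 CPM (-0.69 ± 0.14, adjusted p = 0.00179), which held.

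Stress and damage lists gave few calls. Of 21 p53 target genes 1 was called higher and 1 lower (4.76% each way, against 10.1% and 5.78% of all genes). Cdkn1a, the p21 inhibitor of cyclin-dependent kinases, was at 2.08, 2.41 and 3.64 CPM at month 9 and 4.36, 29 and 7.82 CPM at month 12 (2.34 ± 0.52, adjusted p = 0.0039), and without replicate 2 of month 12 it was not called (1.16, adjusted p = 0.058). Mdm2, another p53 target, was at 44.2, 43.9 and 53.6 CPM and then 40.0, 54.4 and 50.2 CPM. The 24 DNA repair genes gave 1 call, lower (4.17%, against 5.78% of all genes), which did not hold. Mki67, the proliferation marker, was at 3.98, 8.38 and 2.93 CPM and then 5.56, 14.3 and 8.91 CPM. Of 20 replication-dependent histone genes 2 were called lower (10%, against 5.78% of all genes) and held. Hist1h4h was at 67.6, 63.6 and 70.6 CPM and then 40.3, 37.3 and 43.2 CPM (-0.74 ± 0.16, adjusted p = 0.00275), and Hist1h2bc at 117, 108 and 122 CPM and then 77, 73.7 and 70.6 CPM (-0.65 ± 0.16, adjusted p = 0.00596).

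Of 32 interferon genes 1 was called higher and 3 lower (9.38%), shares below and near those of all genes (10.1% and 5.78%), with a median of 0.03. Without replicate 2 of month 12 the median was -0.31 with 4 called lower (12.5%, against 3.25% of all genes in that fit). Cmpk2, a mitochondrial nucleotide kinase induced by interferon, was at 11.4, 10.9 and 14.8 CPM and then 6.61, 6.29 and 5.51 CPM (-1.01 ± 0.21, adjusted p = 0.00207) and held. Oas2 was called higher on the strength of 1 library, at 1.85, 2.12 and 1.76 CPM and then 1.55, 13.9 and 4.16 CPM (adjusted p = 0.0353; 0.521 without replicate 2 of month 12), and the call was also lost without each library of month 9. The 24 MHC and antigen presentation genes gave 1 higher call (4.17%, against 10.1% of all genes), which did not hold.

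Of the other lists, endoplasmic reticulum chaperones gave 1 higher call of 16, ER stress sensors 2 lower of 13, cytosolic heat shock proteins 1 lower of 17, and the CAR and PXR cytochromes and partners 1 call each way of 19. Bile acid transporters gave 2 lower calls of 15, metabolic nuclear receptors 1 each way of 21, iron handling genes 1 higher and 3 lower of 20, and manganese and zinc handling genes 1 each way of 11. Globin and erythroid genes gave 1 lower call of 8, and markers of fat, pancreas and muscle 1 lower of 5. Apart from Bmp2 in the iron list and 1 erythroid gene, none of these calls held. Over all genes tested 10.1% were called higher and 5.78% lower.

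In 10 lists edgeR called no gene. At an unadjusted p under 0.05 it found 2 of 20 hepatocyte identity markers, 0 of 7 clock activators, 1 of 8 clock output genes, 3 of 16 integrated stress response genes and 3 of 23 cell cycle genes. It found 0 of 16 lipogenesis genes, 2 of 10 elongases and desaturases, 2 of 14 growth hormone axis genes, 1 of 17 guanylate-binding protein and immunity-related GTPase genes and 9 of 20 immediate early genes. DESeq2 called 4 immediate early genes higher and 2 hepatocyte markers lower, and 0 in the other 8 lists. Limma voom called 1 clock output and 1 cell cycle gene higher, and 2 hepatocyte markers and 1 gene each of the stress response, growth hormone and guanylate-binding protein lists lower. The immediate early genes had a median of 0.85, which was -0.11 without replicate 2 of month 12.

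**Figure D5:**
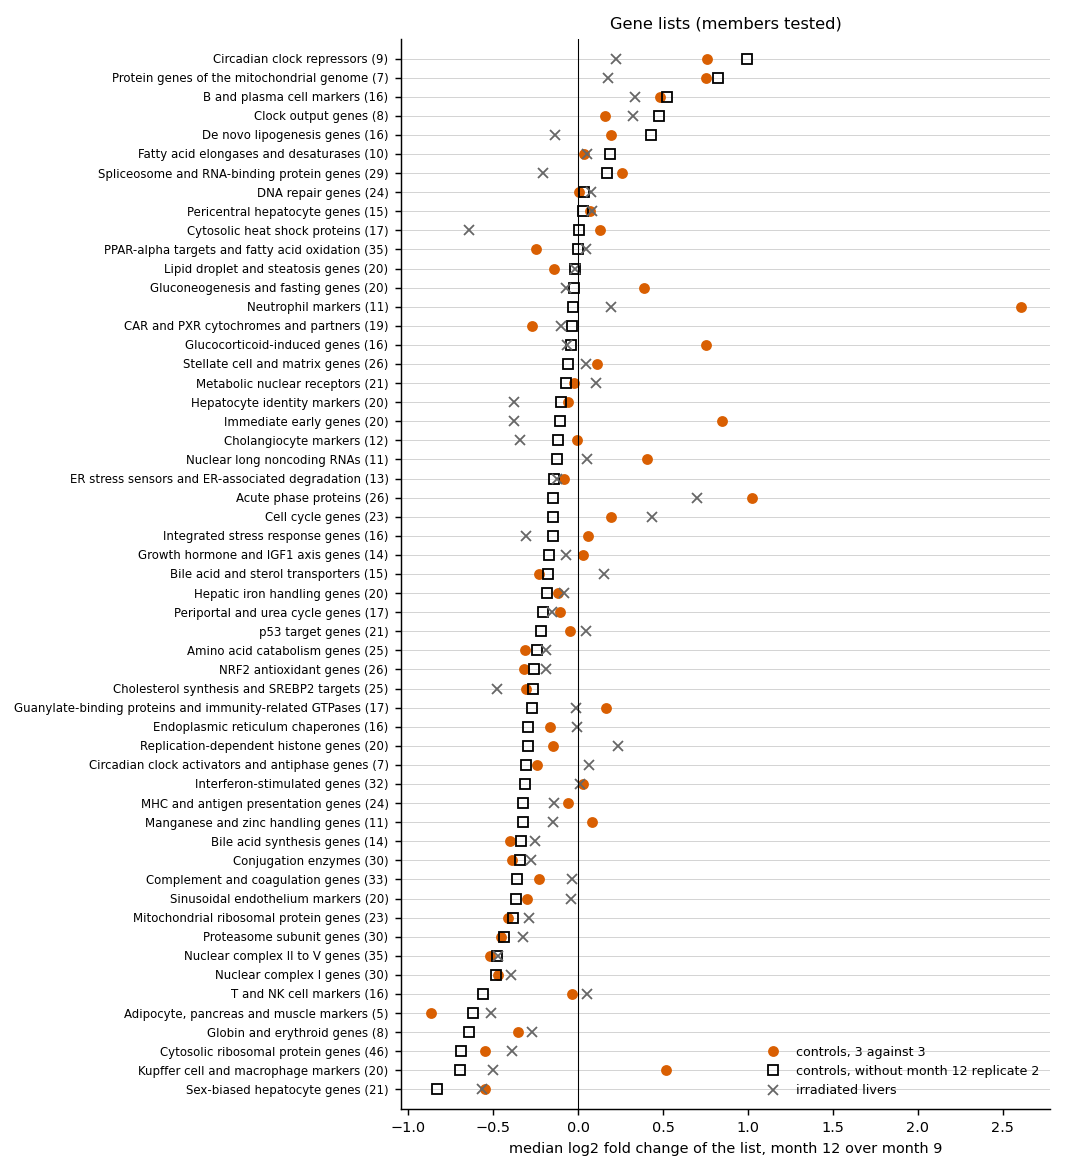
Median log2 fold change (x axis) of month 12 over month 9 for the 55 gene lists in control livers with all libraries, in control livers without replicate 2 of month 12, and in irradiated livers. The ribosome, respiratory chain and proteasome lists lie between -0.55 and -0.41 in the first, and the neutrophil list drops from 2.61 to -0.03 when that replicate is left out.

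In the irradiated livers the same 3 months gave 59 calls in the same fit (0.3% of genes tested), 14 higher (0.0711%) and 45 lower (0.229%). The arms share no library in this comparison. Of the 1994 genes called higher in controls, 1482 had a positive value in irradiated livers (74.3%), with a median log2 fold change of 0.28 there and 1.40 in controls. Of the 1137 called lower, 862 had a negative value in irradiated livers (75.8%), with medians of -0.15 and -0.57. Over all genes tested the median in irradiated livers was 0.04, and the share of all genes with each sign there was not counted. Genes called higher in both arms numbered 8, which is 0.401% of the control calls and 57.1% of the irradiated calls, and 0 were called lower in both.

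The difference between the arms was tested by the interaction term. It passed for 186 genes (0.945%), 157 with a more positive change in controls (0.798%) and 29 with a more negative one (0.147%). Of the 186, 119 were called higher and 24 lower in controls, 13 were called in irradiated livers and 31 in neither arm. With upper quartile scaling the split was 122 positive and 58 negative. The count ran from 13 to 1151 over the fits with 1 of the 12 libraries left out: it was 14 without replicate 2 of control month 12 and 1151 without replicate 2 of irradiated month 9. With the 12 libraries of months 9 and 12 fitted alone it was 0 (2274 genes at an unadjusted p under 0.05), so each interaction below depends on the spread estimated from all 30 libraries.

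B3galt2 changed by 0.87 (log2) in irradiated livers, and the difference of the changes was 1.43 (adjusted p = 0.039). Pom121 changed by -0.17 there, a difference of 1.58 (adjusted p = 0.00585), and Proser1 by 0.03, a difference of 1.28 (adjusted p = 0.00884). R3hdm1 (1.08), Kcnq1ot1 (1.22), Irf2 (1.06), Pln (2.51), Srrm2 (1.09), Fkbp5 (2.30) and Cdkn1a (2.97) also differed between the arms by these log2 amounts, all more positive in controls. H1f0 (-0.86), Commd3 (-0.65), Trip13 (-2.26), Cmpk2 (-1.27), Hist1h4h (-1.04) and Cirbp (-1.17) differed in the negative direction. Creb3l2, a transcription factor of the secretory pathway, went opposite ways. It changed by 0.88 ± 0.22 in controls (adjusted p = 0.00827) and by -1.07 in irradiated livers (adjusted p = 0.0354), a difference of 1.95 (adjusted p = 0.00585). Its control level was 50.4, 33.1 and 45.1 CPM at month 9 and 60.2, 113 and 64.5 CPM at month 12, with the highest value in replicate 2, and the control call was lost without that library or without replicate 2 of month 9 (highest adjusted p = 0.111).

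Over the year the months 9 and 12 stood at different places in a longer course, given here without a test. The mean CPM of B3galt2 in controls was 18.1 ± 2.91, 15.3 ± 2.44, 2.91 ± 0.536, 2.60 ± 0.322 and 12.8 ± 1.97 in the order of months 1, 2, 4, 9 and 12 (SD, n = 3 throughout). Months 4 and 9 were the low ones, and month 12 lay nearer to months 1 and 2. Rps7 ran the opposite way, at 26.6 ± 4.81, 43.8 ± 5.82, 128 ± 23.2, 109 ± 7.09 and 52.7 ± 8.92 CPM at months 1, 2, 4, 9 and 12. The Gm26917 share was likewise lowest at months 4 and 9, at 4.10% ± 1.72, 4.03% ± 0.719, 0.490% ± 0.0196, 0.500% ± 0.0419 and 1.65% ± 0.359 at the same months. Depth also differed, with mean total counts per library of 10470700 at month 1 and 18605300 at month 9 in controls. Mup3 had a mean of 3748 ± 595 CPM in month 1, of 11518 ± 1912 CPM in month 4, its highest, and of 3858 ± 869.7 CPM in month 12. Clec4g was at 34.5 ± 2.36, 38.8 ± 4.14 and 21.9 ± 2.39 CPM at months 4, 9 and 12. Zbtb16 did not share that course, with 18.4 ± 4.75, 156 ± 35 and 34 ± 24.4 CPM in months 1, 2 and 9 against 138 ± 13.5 CPM in month 12.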

How the data were processed

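The 6 control livers of months 9 and 12 were measured by RNA-seq of ribosome-depleted total RNA. The deposited table holds raw read counts per Ensembl gene for 30 libraries. Per the series text, the authors aligned reads to GRCm38 with STAR, version 2.5.3a per the submitters' processing notes, and counted genes on Gencode M14; the strand setting is not given in the sources used here. Of 51826 identifiers, 51633 matched Gencode M21, from which symbols, classes and coordinates (GRCm38) were taken; the 193 others held at most 0.0222% of a library.

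Genes were filtered with filterByExpr (minimum count 10, total 15), scaled by TMM and fitted with edgeR 4.0.16's robust quasi-likelihood test (R 4.3.3) on all 30 libraries, with 1 coefficient per group and no covariate. Adjusted p-values are Benjamini-Hochberg over all genes tested, called under 0.05. Printed gene levels are TMM-normalized CPM, list sums plain CPM. Shares were tested by two-sided exact permutation of 3 against 3 libraries (scipy 1.17.1). Total counts of 14987081 to 20215995 per library limit precision for genes near the filter. In simulated data with the same means, 75% of 2-fold and 93% of 4-fold changes were recovered, with 3 false calls of 171. These shares hold for the simulated data only. In the real data a library stood apart and the number of calls depended on single libraries, so the simulation gives no rate of false calls for them.

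The comparison, the 55 gene lists and the tests were chosen with earlier results of these data known. The genes named are the 12 largest called changes per direction at 1 CPM or more with groups that do not overlap, the 6 smallest adjusted p-values per direction, in each list the 4 best called and the first 3 genes, the 8 best interactions, and 5 nuclear and mitochondrial RNAs. Predicted genes, receptor segments and pseudogenes were left out of the first 2 kinds and of the interactions. Atp5l, Cdc73, Cirbp, Lcn2, Ndufb2 and Psmd11 fall outside this and were named after their values were seen. Some genes under the rule are not reported here. Lists got no set test. Alternatives were other scalings and filters, DESeq2 1.42.0, limma 3.58.1 voom, fewer libraries in the fit, a replicate block, the Gm26917 covariate, each library left out, and protein-coding genes alone, the last added after the data were seen. Same-numbered control libraries of the 2 months did not deviate together (r = -0.117, -0.0608 and 0.0772), so the numbers were not read as pairs. Between control and irradiated libraries of month 12, r was 0.186, 0.346 and 0.186 for the same number and -0.35 to 0.233 for other numbers. At month 9 it was 0.093, 0.198 and -0.0109 for the same number and -0.179 to 0.109 for others. What this means for the interaction was not tested beyond the replicate block.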

Additional observations from a re-analysis of the deposited data

Results flagged for a closer look

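The change from month 9 to month 12 differed between control and irradiated livers in 18 of the genes named here, by the interaction term of the edgeR fit on all 30 libraries at an adjusted p under 0.05. Values are the log2 change in controls minus that in irradiated livers. The difference was positive for Cdkn1a (2.97), Pln (2.51), Fkbp5 (2.30), Creb3l2 (1.95), Pom121 (1.58), B3galt2 (1.43), Proser1 (1.28), Kcnq1ot1 (1.22), Srrm2 (1.09), R3hdm1 (1.08), Irf2 (1.06) and Cdc73 (0.63). It was negative for Trip13 (-2.26), Cmpk2 (-1.27), Cirbp (-1.17), Hist1h4h (-1.04), H1f0 (-0.86) and Commd3 (-0.65). With the 12 libraries of months 9 and 12 fitted alone, 0 genes passed by the same edgeR test (2274 at an unadjusted p under 0.05). Cdkn1a, Fkbp5 and Creb3l2 had their highest control level in replicate 2 of month 12, the control library with high acute phase genes. The part of that library in their differences was not tested one by one, and without it 14 genes passed in all. The irradiated libraries of month 12 also reached a high acute phase sum, 82839 CPM at their highest.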

How the results depend on the processing

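The count of genes called between months 9 and 12 in controls (3131) was 1728 with the 6 compared libraries fitted alone, 2057 with no low-count filter (79.0% of calls higher, against 63.7% in the report), 1725 with protein-coding genes alone and 1 with the Gm26917 covariate. It ran from 1818 to 3491 with 1 library left out, and stayed within 1.5 times under 8 other scalings, filters, tools and sets of libraries. The interaction count (186) was 0 with 12 libraries alone, 668 by DESeq2, 338 with no filter, 316 with protein-coding genes alone, 1 with the covariate, and 13 to 1151 with 1 library left out. With a replicate block, which pairs libraries by number only, 0 genes were called in either test (3868 and 1967 at an unadjusted p under 0.05 by edgeR). The difference in the Gm26917 share ran from 0.956 to 1.31 percentage points with 1 library left out. Of the 77 called genes named here, 59 to 77 kept their call and direction under the alternatives other than single left-out libraries, the covariate and the block, which kept 63 to 73, 0 and 0; protein-coding genes alone hold only 70 of them and the fit without mitochondrial genes 75. Under the covariate 3 turned: Sdhd to 0.0757, Psmd2 to 0.24 and mt-Nd4 to -0.24 (log2). The cause was not tested. Depth limits genes under about 1 CPM, where a library holds few reads.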
